A study of Macaca mulatta with 4 samples.

Results

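FOS, FOSB, FOSL1, FOSL2, JUN, JUNB, JUND, EGR1, EGR2 and IER2 are grouped here as immediate early genes. Cells switch on typical genes of this kind within minutes of a signal without making new protein first. FOSL1 and FOSL2 come later, and most cells express JUND without a stimulus. These 10 genes were taken from the expression table by symbol, 1 row each, out of 23697 rows. RNA of rhesus monkey (Macaca mulatta) cells was sequenced: embryonic stem cells, or ESCs, and the neural progenitors, or NPCs, that give rise to neurons and glia. The study behind the data concerns NPCs with a single chromosome set as a tool for genetic screens. The libraries compared were diploid NPCs from embryos labelled embryonic day 3.5, haploid ESCs labelled embryonic day 2.5 and diploid ESCs labelled embryonic day 3.5. Each group was 1 library, and no genetic change or treatment is named for any of them. Haploid NPCs, labelled embryonic day 2.5, were not analysed here. All samples carry an in vitro differentiation label, and the labels name neither the number of cell lines nor the culture medium, nor a sort for DNA content.

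FOS and JUN proteins are leucine zipper factors that pair to form AP-1, a dimer that binds DNA at growth and stress response genes. FOS proteins need a JUN partner, whereas JUN proteins can also pair among themselves. EGR proteins are zinc finger factors. Growth factors drive FOS and EGR1 through the ERK kinases, which act on serum response factor (SRF) and its ELK partners, and calcium and cyclic AMP act through CREB. Serum, cell contact and handling of cells are classic inducers, and in neurons these genes report recent activity.

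Levels are in FPKM, which divides fragments by transcript length and library size, so different genes can be set side by side. Ratios are log2 ratios of FPKM plus 1, which understates differences of genes at low values, and were counted at 4-fold (2 on this scale) among the 14474 genes whose mean reached 1 FPKM. All 10 genes passed this filter. With 1 library in each group there is no replicate error and no test, so every difference below is one between libraries. The spacing of low values puts the depth of the NPC library at 78.1% and that of the haploid ESC library at 95.2% of the diploid ESC one. No read totals come with the table, so counting error is unknown, and it weighs most on values near 0. POU5F1, which holds cells pluripotent, stood at 1.5 FPKM in diploid NPCs, 1332 FPKM in haploid ESCs and 1859 FPKM in diploid ESCs. All 8 pluripotency markers were at least 4-fold lower in NPCs than in diploid ESCs, against 6.11% of all genes tested. Of 8 neural progenitor markers 5 were at least 4-fold higher, against 8.28% of all genes. The progenitor marker NES was about level, at 280 FPKM in NPCs, 266 FPKM in haploid ESCs and 253 FPKM in diploid ESCs. The diploid ESC library also held endoderm transcripts, with the regulator SOX17 at 60.4 FPKM there and 0.10 FPKM in haploid ESCs.

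Of the 10 genes, 9 had their lowest level in NPCs, and JUND had its lowest in haploid ESCs. In all, 8 were at least 4-fold lower in diploid NPCs than in diploid ESCs, against 6.11% of all genes tested, and 0 were at least 4-fold higher, against 8.28%. Their median log2 ratio was -2.78, beside 0.01 for all genes. The ratios ran from -6.18 for FOSB to -0.79 for JUND, and all 10 were below 0, against 49.6% of all genes, also after either rescaling of the libraries. At 2-fold, 9 of 10 were lower, against 19.6% of all genes, and at 8-fold 5 of 10, against 2.15%. In bulk RNA, fewer cells with a transcript and less of it per cell cannot be told apart.

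**Figure D1:**
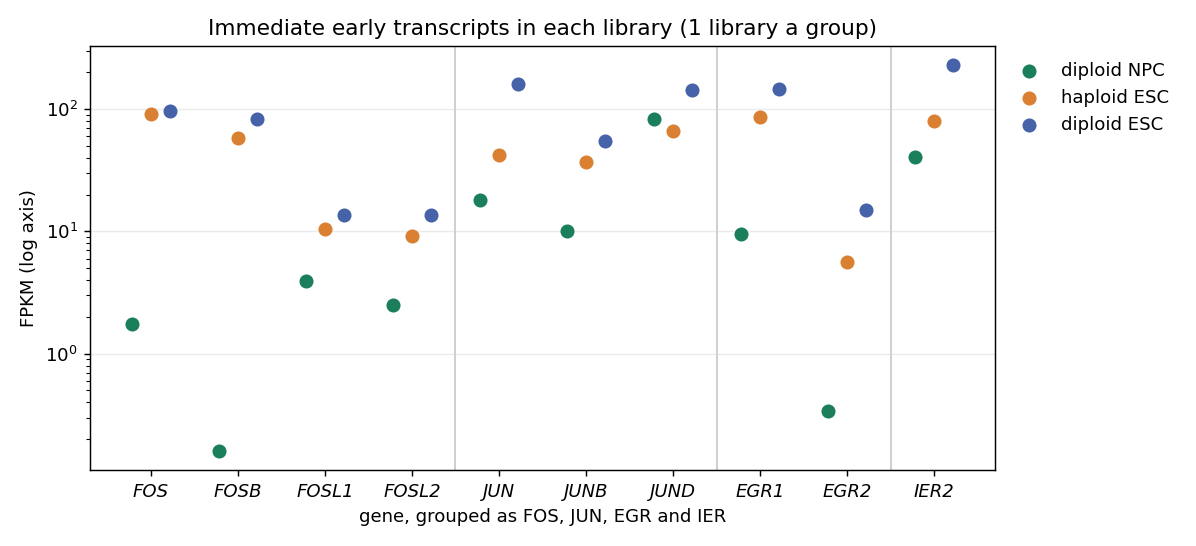
FPKM of the 10 immediate early genes on a log axis, with 1 point for each of the diploid NPC, haploid ESC and diploid ESC libraries. The NPC point is the lowest for 9 genes; for JUND it lies at 83.2 FPKM, between 66.6 FPKM in haploid ESCs and 144 FPKM in diploid ESCs.

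FOS, the founding member of its family (NCBI gene 702077), stood at 1.76 FPKM in diploid NPCs, 91.0 FPKM in haploid ESCs and 97.1 FPKM in diploid ESCs. The 2 ESC libraries were close, and the NPC level was 1.81% of the diploid ESC level. The log2 ratio of NPCs over diploid ESCs was -5.15, the 45th lowest of the genes tested. FOSB, a close relative of FOS whose shortened splice form builds up in stimulated neurons (NCBI gene 715896), stood at 0.16 FPKM in NPCs, 58.4 FPKM in haploid ESCs and 82.9 FPKM in diploid ESCs. Its NPC level was 0.193% of the diploid ESC level, and its log2 ratio of -6.18 was the 11th lowest. The table lists 1 transcript for FOSB, so its splice forms cannot be told apart.

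FOSL1 and FOSL2 encode FRA-1 and FRA-2, which in human and rodent cells lack the strong activation domain of FOS and appear later after a stimulus. FOSL1 stood at 3.94 FPKM in NPCs, 10.4 FPKM in haploid ESCs and 13.7 FPKM in diploid ESCs. FOSL2 stood at 2.51 FPKM in NPCs, 9.17 FPKM in haploid ESCs and 13.6 FPKM in diploid ESCs. Both were far lower than FOS and FOSB in ESCs but higher than them in NPCs. The NPC levels of these genes were low, from 0.16 to 3.94 FPKM in 1 library, and their counting error is unknown. Their log2 ratios of NPCs over diploid ESCs were -1.58 for FOSL1, short of 4-fold, and -2.06 for FOSL2, just past it.

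JUN, the first AP-1 subunit described, stood at 17.9 FPKM in NPCs, 42.3 FPKM in haploid ESCs and 162 FPKM in diploid ESCs. Its 3 levels were well apart, with haploid ESCs nearer to NPCs than to diploid ESCs, and its log2 ratio of NPCs over diploid ESCs was -3.10. JUNB, a weaker activator that can oppose JUN, stood at 10.2 FPKM in NPCs, 36.7 FPKM in haploid ESCs and 54.7 FPKM in diploid ESCs, a log2 ratio of -2.32 for NPCs over diploid ESCs. JUND, the family member that most cells express without a stimulus, stood at 83.2 FPKM in NPCs, 66.6 FPKM in haploid ESCs and 144 FPKM in diploid ESCs. Its log2 ratio was -0.79 over diploid ESCs and 0.32 over haploid ESCs, the 1 positive ratio among the 10 genes in either NPC comparison. After rescaling to an equal FPKM sum its ratio over haploid ESCs was 0.03. In the RefSeq gene table, which is of another assembly (T2T-MMU8v2.0), JUNB overlaps HOOK2 and FOSL1 overlaps CCDC85B. FOSL2 overlaps a long non-coding RNA gene there, LOC144333808, which has no values here. Without a stated strand, reads of overlapping genes cannot be told apart.

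EGR1, a zinc finger factor used as a readout of ERK signalling, stood at 9.48 FPKM in NPCs, 86.9 FPKM in haploid ESCs and 145 FPKM in diploid ESCs. Its log2 ratio of NPCs over diploid ESCs was -3.80. EGR2, also called KROX20, which in mouse marks hindbrain segments and later drives myelination, stood at 0.34 FPKM in NPCs, 5.61 FPKM in haploid ESCs and 15.0 FPKM in diploid ESCs. It was the lowest of the 10 genes in haploid ESCs and the second lowest in NPCs, with a log2 ratio of -3.57 for NPCs over diploid ESCs. IER2, a nuclear protein induced by growth factors, stood at 40.7 FPKM in NPCs, 80.0 FPKM in haploid ESCs and 229 FPKM in diploid ESCs. It was the highest of the 10 genes in diploid ESCs and still second to JUND in NPCs, with a log2 ratio of -2.46.

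Haploid ESCs were set against diploid ESCs, which by their labels differ in the number of chromosome sets and in embryonic day. All 10 genes were lower in haploid ESCs, against 48.2% of all genes, but 0 of 10 were at least 4-fold lower, against 2.53%, and 0 were at least 4-fold higher, against 1.04%. The median log2 ratio was -0.65, beside 0.02 for all genes. Those at least 2-fold lower were JUN, IER2, EGR2 and JUND, 4 of 10 against 9.18% of all genes. JUN had the lowest ratio, -1.91, followed by IER2 at -1.51, EGR2 at -1.27 and JUND at -1.10. FOS, FOSB, FOSL1, FOSL2, JUNB and EGR1 lay between -0.73 and -0.09, FOS being the nearest to 0. Rescaling each library to an equal sum moved the median of all genes by 0.19 in this comparison and put FOS at 0.11, above diploid ESCs, while the other 9 genes stayed lower. Ploidy and embryonic day go together in these libraries and cannot be told apart. Endoderm markers differed as well, summing to 54.4 FPKM in haploid and 963 FPKM in diploid ESCs. Ploidy cannot be told apart from that difference either.

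Diploid NPCs were also set against haploid ESCs, which shares a library with each of the comparisons above. Here 4 of 10 genes were at least 4-fold lower in NPCs, against 7.9% of all genes, and 0 were higher by that much, against 11.6%. At 2-fold, 8 of 10 were lower, against 23.9%, and 9 of 10 were lower by any amount, against 49.9%. The 4 were FOS at -5.06, FOSB at -5.68, EGR1 at -3.07 and EGR2 at -2.30. The NPC level was 1.94% of the haploid ESC level for FOS and 0.274% for FOSB, whereas it was 42.4% for JUN and 50.9% for IER2. JUNB, at -1.76, passed 4-fold only after rescaling to an equal sum, at -2.07, a step that moved the median of all genes by -0.26.

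**Figure D2:**
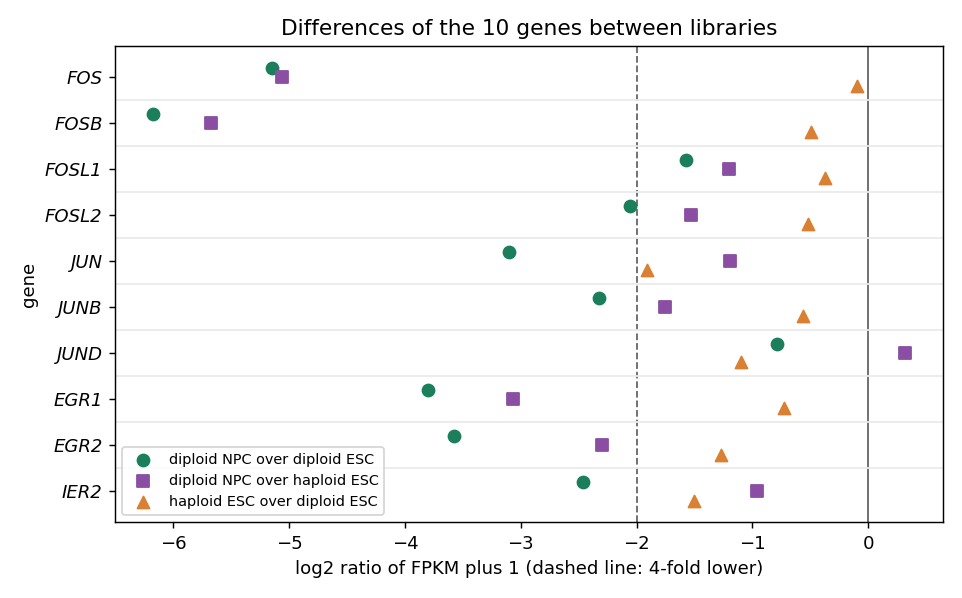
Log2 ratios of FPKM plus 1 for the 10 genes in the 3 comparisons, each a difference between 2 single libraries; the dashed line marks 4-fold lower. FOS and FOSB lie below -5 against either ESC library and at -0.09 and -0.50 between the ESC libraries, whereas JUN lies at -1.91 between the ESC libraries.

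The make-up of the FOS and JUN families differed between libraries as well as their totals. FPKM summed over the 4 FOS genes was 8.37 in NPCs, 169 in haploid ESCs and 207 in diploid ESCs. FPKM summed over the 3 JUN genes was 111 in NPCs, 146 in haploid ESCs and 361 in diploid ESCs. FOS family transcripts were thus 0.0753 times the JUN family in NPCs, 1.16 times in haploid ESCs and 0.575 times in diploid ESCs, a ratio within each library that no scaling of libraries changes. Within the FOS family, FOSL1 held 47.1% and FOS 21.0% of the sum in NPCs. That FOSL1 share rests on 3.94 FPKM. CCDC85B, which overlaps FOSL1 in the RefSeq gene table, stood at 83.2 FPKM in NPCs, 37.7 FPKM in haploid ESCs and 40.2 FPKM in diploid ESCs. How many reads counted for FOSL1 came from CCDC85B was not tested. FOS held 53.9% in haploid ESCs and 46.8% in diploid ESCs, where FOSL1 held 6.16% and 6.63%. Within the JUN family, JUND held 74.8% in NPCs, 45.8% in haploid ESCs and 40.0% in diploid ESCs, and JUN held 16.1%, 29.0% and 44.8% in that order of libraries. These are transcript shares and say nothing of the amounts of protein or of dimers.

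**Figure D3:**
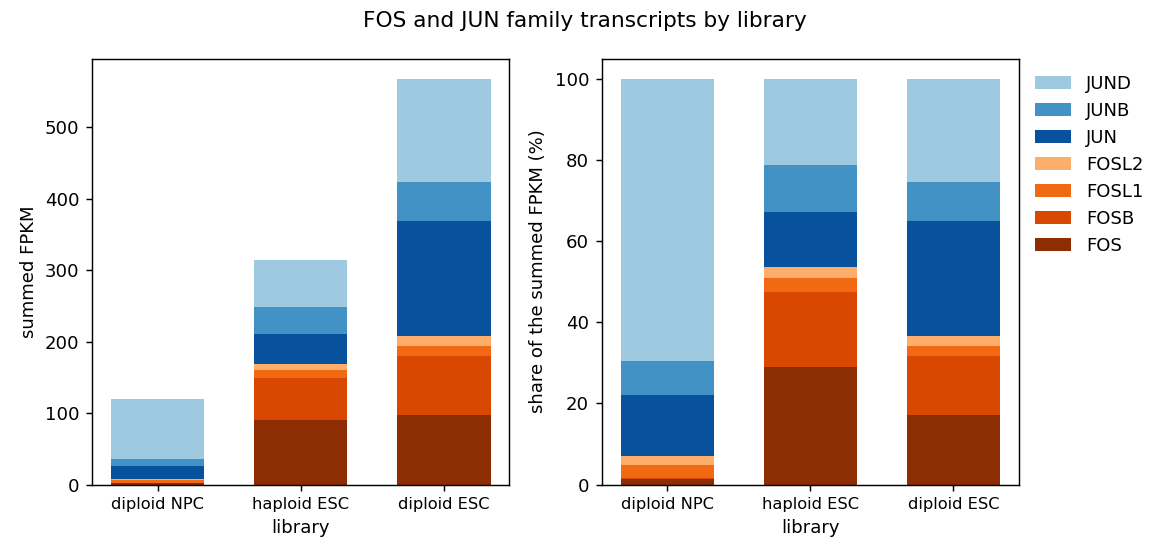
Stacked bars of FPKM for the 4 FOS and 3 JUN genes in the diploid NPC, haploid ESC and diploid ESC libraries, as sums on the left and as shares of the sum on the right. JUND alone makes up 69.5% of the sum in NPCs, whereas the FOS family makes up 53.7% in haploid ESCs and 36.5% in diploid ESCs.

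The order of levels changed with the library. In NPCs it ran JUND, IER2, JUN, JUNB, EGR1, FOSL1, FOSL2, FOS, EGR2 and FOSB from highest to lowest. In haploid ESCs FOS, EGR1 and IER2 led, at 91.0, 86.9 and 80.0 FPKM, and EGR2 was last. In diploid ESCs IER2, JUN, EGR1 and JUND led, the last pair at 145 and 144 FPKM, and FOSL1 and FOSL2 came last at 13.7 and 13.6 FPKM. No spread over samples is available to say which neighbours in these orders differ.

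Most other immediate early genes were also lower in NPCs. Of a list of 30, 29 passed the filter, and 21 of these were at least 4-fold lower in diploid NPCs than in diploid ESCs, with 1 at least 4-fold higher and a median of -3.13. The shares of all genes were 6.11% lower and 8.28% higher. SGK1, a serum and glucocorticoid induced kinase, stood at 0.43 FPKM in NPCs, 14.7 FPKM in haploid ESCs and 75.0 FPKM in diploid ESCs. MYC, the growth regulator, stood at 2.07 FPKM in NPCs, 56.9 FPKM in haploid ESCs and 122 FPKM in diploid ESCs. The exceptions were SIK1, a salt-inducible kinase that CREB controls, at 17.4 FPKM in NPCs, 1.41 FPKM in haploid ESCs and 3.40 FPKM in diploid ESCs, and ID1, a BMP target, at 152, 81.3 and 87.7 FPKM in that order.

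Between haploid and diploid ESCs, 3 of the 29 were at least 4-fold lower and 0 higher, beside 2.53% and 1.04% of all genes, with a median of -0.85. With a pseudocount of 0.1 the count lower was 5, and the share of all genes lower rose to 5.03%. The lowest were ARC, which acts at synapses, at 2.73 FPKM in haploid and 27.6 FPKM in diploid ESCs, and ATF3, a stress factor that pairs with JUN, at 6.05 and 46.5 FPKM. GADD45B, a growth arrest gene, went the other way, at 70.1 FPKM in haploid and 41.9 FPKM in diploid ESCs, and so did SRF, at 62.3 and 33.8 FPKM.

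Of 25 genes for SRF, its ELK and MRTF partners, CREB and the MAP kinases, 1 was at least 4-fold lower in NPCs than in diploid ESCs and 0 higher, against 6.11% and 8.28% of all genes, with a median of -0.71. That 1 gene was ELK1, an ERK substrate, at 4.71 FPKM in NPCs, 57.4 FPKM in haploid ESCs and 22.8 FPKM in diploid ESCs. Against haploid ESCs 1 of the 25 was at least 4-fold lower in NPCs as deposited, against 7.9% of all genes, with a median of -1.22. After rescaling to an equal sum it was 10 of the 25, against 12.8% of all genes, with a median of -1.55. MAP2K1, which activates ERK, stood at 12.0 FPKM in NPCs, 42.3 FPKM in haploid ESCs and 48.3 FPKM in diploid ESCs. MAPK3, the ERK1 kinase, had the highest ratio and stood at 45.3 FPKM in NPCs, 17.0 FPKM in haploid ESCs and 18.3 FPKM in diploid ESCs. In haploid against diploid ESCs, 18 of the 25 were higher and 7 lower, where 48.2% of all genes were lower, with a median of 0.45, while the 10 immediate early genes had one of -0.65. ELK3, a relative of ELK1, stood at 23.3 FPKM in haploid and 7.90 FPKM in diploid ESCs, and the ERK-activated kinase RPS6KA1 at 9.25 and 24.7 FPKM. After rescaling to an equal sum, which moved the median of all genes up by 0.19, 21 of the 25 were higher. SRF is in both this list and that of other immediate early genes, as ATF3 and MAFF are in that one and in the list of partners.

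Feedback genes of ERK and EGR signalling were mixed. Of 11, 2 were at least 4-fold lower in NPCs than in diploid ESCs and 0 higher, against 6.11% and 8.28% of all genes, with a median of -0.55. The lower ones were DUSP5, a nuclear ERK phosphatase, at 5.10 FPKM in NPCs, 19.1 FPKM in haploid ESCs and 46.2 FPKM in diploid ESCs, and SPRED1, an inhibitor of RAS signalling, at 1.38, 37.6 and 15.4 FPKM. SPRY1, of the Sprouty inhibitors, stood at 48.3 FPKM in NPCs, 19.4 FPKM in haploid ESCs and 16.9 FPKM in diploid ESCs, and SPRED3 at 9.12, 1.93 and 1.66 FPKM. Of the corepressors that bind EGR proteins, NAB2 stood at 33.8 FPKM in NPCs, 21.9 FPKM in haploid ESCs and 57.2 FPKM in diploid ESCs, and NAB1 at 8.07, 21.7 and 12.3 FPKM. In haploid against diploid ESCs 0 of the 11 differed by 4-fold, where 2.53% of all genes were lower and 1.04% higher, with a median of 0.17.

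Of 13 other leucine zipper genes whose proteins can pair with FOS or JUN or bind related sites, 9 passed the filter and 2 were at least 4-fold lower in NPCs than in diploid ESCs, with 0 higher and a median of -1.24, where 6.11% of all genes were lower and 8.28% higher. They were ATF3, at 1.43 FPKM in NPCs, and JDP2, a repressor that dimerises with JUN, at 0.85 FPKM in NPCs, 3.65 FPKM in haploid ESCs and 9.49 FPKM in diploid ESCs. ATF2, a JUN partner, stood at 6.63, 11.6 and 6.61 FPKM in that order. Of 20 genes known as AP-1 targets in other cells, 15 passed the filter, and 6 were at least 4-fold lower in NPCs than in diploid ESCs and 1 higher, with the same shares of all genes. Their median was -0.81 against diploid ESCs, but 0.75 for NPCs against haploid ESCs. The lowest ratio was that of SPP1, the secreted protein osteopontin, at 124 FPKM in NPCs, 26.8 FPKM in haploid ESCs and 3071 FPKM in diploid ESCs. VEGFA, an angiogenic factor, stood at 4.86 FPKM in NPCs, 15.1 FPKM in haploid ESCs and 39.0 FPKM in diploid ESCs. The EGF receptor ligand EREG was the higher one, at 9.70, 0.70 and 1.32 FPKM. In haploid against diploid ESCs, 4 of the 15 were at least 4-fold lower and 0 higher, against 2.53% and 1.04% of all genes, with a median of -1.31. SPP1 had the lowest ratio here too, at -6.79, and the collagenase MMP1 stood at 0.12 FPKM in haploid and 7.97 FPKM in diploid ESCs.

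**Figure D4:**
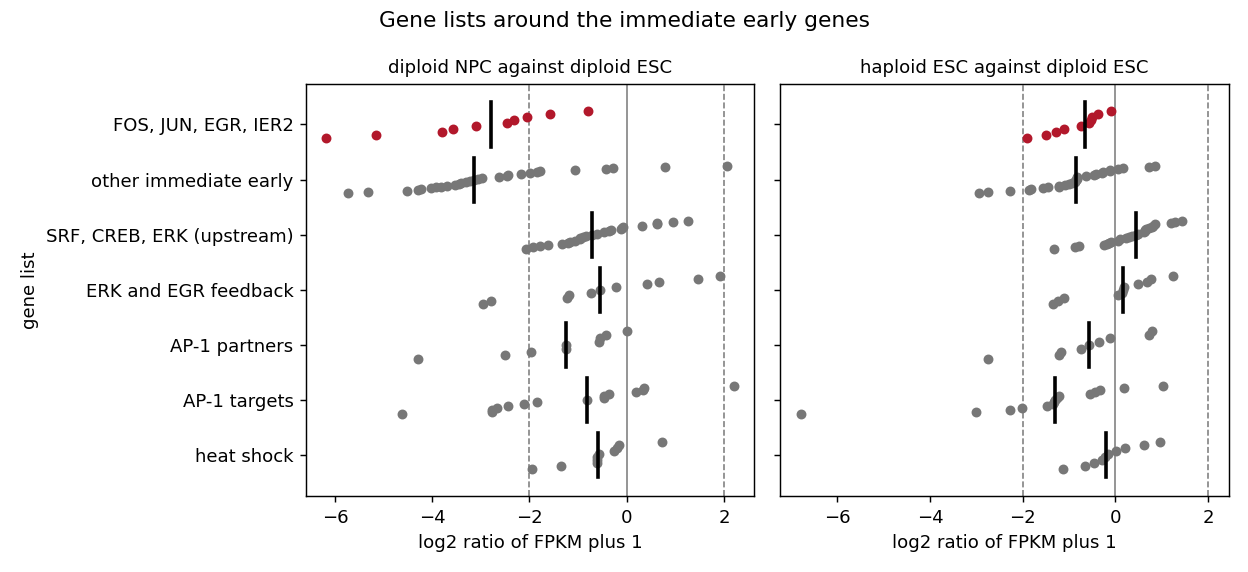
Log2 ratios of FPKM plus 1 for each gene past the filter, by list, in diploid NPCs against diploid ESCs on the left and haploid against diploid ESCs on the right; black bars are list medians and dashed lines mark 4-fold. On the left the 10 genes have a median of -2.78 and the other immediate early genes one of -3.13, the lowest of the 7 lists drawn, and on the right the list of upstream genes has a median of 0.45.

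Heat shock genes also respond to stress on cells. Of 12, 10 were found, and 0 of these differed by 4-fold in NPCs against diploid ESCs, with a median of -0.59, or in haploid against diploid ESCs, with a median of -0.20. The shares of all genes were 6.11% lower and 8.28% higher in NPCs, and 2.53% and 1.04% in haploid ESCs. The mitochondrial chaperone gene HSPD1 had the lowest ratio in NPCs, at 160 FPKM, against 452 FPKM in haploid ESCs and 619 FPKM in diploid ESCs. HSP90AA1 alone was higher in NPCs than in diploid ESCs, at 1358 FPKM, against 519 FPKM in haploid ESCs and 823 FPKM in diploid ESCs. The 10 heat shock genes found do not include HSPA1A or HSPA1B, so these counts say nothing of those genes. Whether stress or handling of the cells differed between the libraries was not tested. Markers of other cell types also differed between the libraries. All 7 endoderm markers were at least 4-fold lower in haploid than in diploid ESCs, and their FPKM summed to 30.7 in NPCs, 54.4 in haploid ESCs and 963 in diploid ESCs, with SOX17 listed at 0 in NPCs. Fibroblast markers, 10 genes with none at 0, summed to 160 FPKM in NPCs, 711 FPKM in haploid ESCs and 475 FPKM in diploid ESCs. Of these 10, 1 was at least 4-fold lower and 1 higher in NPCs than in diploid ESCs. In haploid against diploid ESCs 0 were lower and 3 higher by 4-fold, against 2.53% and 1.04% of all genes. The 3 were ACTA2 at 123 against 17.8 FPKM, COL3A1 at 61.1 against 13.1 FPKM and POSTN at 9.59 against 1.27 FPKM. By any amount 6 of the 10 were higher and 4 lower. COL1A1, at 206 against 235 FPKM, and LUM, at 0.26 against 0.98 FPKM, were among the lower ones. Neuron markers, 8 genes with none at 0, summed to 743 FPKM in NPCs, 72.0 FPKM in haploid ESCs and 60.3 FPKM in diploid ESCs. Whether such other cell types were present, or had a part in the levels of the immediate early genes, was not tested.

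The genes most like FOS, FOSB and EGR1 over the 3 libraries were sought among 8128 named genes, by the distance between log2 values centred on each gene's mean. Nearest to FOS was PMAIP1, the apoptosis gene NOXA, at 2.61 FPKM in NPCs, 123 FPKM in haploid ESCs and 129 FPKM in diploid ESCs, a distance of 0.03. It was followed by THBS1, EPHA1, OLFM2 and CYTL1, at distances of up to 0.28. Nearest to FOSB was TDGF1, a Nodal co-receptor, at 1.06, 91.0 and 117 FPKM and a distance of 0.24, followed by CLDN6, ITM2A, CYTL1 and SLC2A3. TDGF1 is in the list of pluripotency markers. Nearest to EGR1 were PHC1, KLF4, KLF10, CDH3 and PIM2, at distances from 0.10 to 0.15. KLF4 and KLF10 are in the list of other immediate early genes, and KLF10 stood at 2.68 FPKM in NPCs, 26.2 FPKM in haploid ESCs and 47.0 FPKM in diploid ESCs. Each distance rests on 3 points, 1 for each library.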

How the data were processed

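Total RNA was read on a BGISEQ-500, per the labels' protocols. Reads were mapped with up to 2 mismatches to the UCSC rhesus assembly named Rhesus8 and counted with featureCounts, and genes with more than 10 summed reads were kept, per the labels' protocols. Mapping used STAR 2.4, per the submitters' processing notes. Values were deposited by the authors as FPKM with 2 decimals; neither the step from counts to FPKM nor the use of strand is stated. Columns were assigned by the sample description that starts their name. In all, 3 columns matched a sample, and 1 matched none and was not used, so haploid NPCs have no values here.

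FPKM was not rescaled. Ratios took a pseudocount of 1 FPKM and a filter at a mean of 1 FPKM. The members and the 11 other gene lists were chosen with earlier results of these data known. Of 159 symbols, 157 were matched, 3 of them by gene ID in the T2T-MMU8v2.0 gene table. Named genes were the 10 members, the 2 highest and 2 lowest ratios of a list in either comparison with diploid ESCs, and the 5 genes nearest to FOS, FOSB and EGR1 among those with at least 10 FPKM in the highest library. Genes next to or overlapping a member are named too, and so is COL3A1, some after their values were seen. Relative depth came from the most frequent ratio of values from 0.15 to 0.6 FPKM, in 905 genes for the NPC and 1311 for the haploid ESC library. Each group held 1 library, so no test was run. The ratio and count steps were checked on simulated data with 200 changed genes. Alternatives tried were a pseudocount of 0.1, the filter left out or set at 5 FPKM, rescaling to a sum of 1000000 (TPM), median of ratios scaling, and thresholds of 2-fold and 8-fold. Python 3.11.15, numpy 2.4.6, pandas 2.3.3 and matplotlib 3.10.9 were used.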

Additional observations from a re-analysis of the deposited data

How the results depend on the processing

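The counts of the 10 genes at 4-fold were within 1.5 times under every pseudocount, filter and scaling tried, and the medians of the 3 comparisons moved by less than that on the log2 scale. The threshold moved the counts: in diploid NPCs against diploid ESCs 5 genes were at least 8-fold lower, in NPCs against haploid ESCs 8 were at least 2-fold lower, and in haploid against diploid ESCs 4 were at least 2-fold lower, where 4-fold gave 8, 4 and 0; the threshold alone sets these numbers. Rescaling to TPM turned FOS in haploid against diploid ESCs to 0.11. It raised the values of both libraries, and those of haploid ESCs more, as their FPKM sum was smaller, 492324 against 568734 in diploid ESCs. FOSB, at 0.16 FPKM in NPCs, had a log2 ratio over diploid ESCs of -8.32 with a pseudocount of 0.1, and EGR2 one of -5.10, so the size of both depends on how values near 0 are treated. In the other lists, the upstream gene count at 4-fold lower in NPCs against diploid ESCs was 1 as reported, 3 with a pseudocount of 0.1 and 2 after TPM rescaling, and against haploid ESCs 1 as reported, 4 with that pseudocount and 10 after TPM rescaling. The share of all genes at 4-fold lower rose too. Against diploid ESCs it was 6.11%, 10.5% and 8.3% in that order of settings, and against haploid ESCs 7.9%, 12.5% and 12.8%. In NPCs against diploid ESCs, after TPM rescaling 1 heat shock gene was lower and, as with a pseudocount of 0.1, 1 feedback gene higher, in place of 0. Among genes with a mean of 5 FPKM or more, AP-1 partners in NPCs had 1 lower in place of 2, AP-1 targets in NPCs 0 higher in place of 1, and AP-1 targets in haploid against diploid ESCs 2 lower in place of 4. No paired analysis was possible because each group has 1 library, and for the same reason no replicate could be left out.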

Other observations

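The nearest protein-coding gene on each side of the immediate early genes, by the order in the T2T-MMU8v2.0 table, gave 20 neighbours, of which 16 passed the filter. Of these 16, diploid NPCs had 1 at least 4-fold below and 1 at least 4-fold above diploid ESCs, against 6.11% and 8.28% of all genes, and the median log2 ratio was -0.11. At 2-fold, 5 of the 16 were lower and 4 higher, against 19.6% and 22.7% of all genes. Among the higher ones, log2 ratios were 1.35 for ERCC1, beside FOSB, 1.25 for PRDX2, beside JUNB, and 1.03 for CCDC85B, beside FOSL1. The lower one at 4-fold was JDP2, beside FOS and itself an AP-1 partner, and the higher one was REEP2, beside EGR1, at 57.3 FPKM in NPCs, 9.65 FPKM in haploid ESCs and 10.4 FPKM in diploid ESCs. The others at least 2-fold lower were HOOK2 at -1.72, ETF1, on the other side of EGR1, at -1.60, and both neighbours of EGR2, NRBF2 at -1.16 and ADO, at 5.29 FPKM in NPCs and 11.6 FPKM in diploid ESCs. TMED10, on the other side of FOS, stood at 45.9, 47.5 and 44.4 FPKM in that order, and RTN2, beside FOSB, at 23.8, 25.3 and 28.8 FPKM. HOOK2, which overlaps JUNB in that table, was lower in haploid ESCs, at 1.54 FPKM against 12.4 FPKM in diploid ESCs. The 10 genes lie on 7 chromosomes there, with at most 4 on the same one.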
